A study of Mus musculus with 6 samples.

Results

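Ion channel genes were followed here in type 2 conventional dendritic cells (cDC2s) of mouse spleen. The members are the rows of the deposited count table whose symbols begin with Kcn, Cacna, Cacnb, Cacng, Trpc, Trpm, Trpv, Clcn, P2rx or Orai, or are Stim1 or Stim2, and that hold at least 10 counts summed over the 6 libraries. The names matched 90 of 14535 rows, and 84 rows met the minimum. Just inside it lay Kcnd3 with 10 counts and just outside it Cacng7 with 8. RNA-seq was run on 3 wild-type (WT) libraries and on 3 libraries of CD11c-Cre Irf4fl/fl mice, called IRF4-deficient below. All came from C57BL/6 animals. In those mice, Cre under the control of the CD11c promoter removes a loxP-flanked segment of Irf4 in cells that express CD11c. No group has Cre without the floxed allele, so effects of Cre, of the floxed allele and of Irf4 loss cannot be told apart. Whether replicates are separate animals is not in the labels, and ages and the sort gate are not given, so p-values here rest on library-to-library spread, part or all of which may be technical. Sample sheet numbers in the labels run separately for each genotype, and their order cannot be told apart from genotype.

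Ion channels let K+, Ca2+, Na+ or Cl- cross membranes down their gradients. In dendritic cells the main route of Ca2+ entry is store-operated: STIM proteins sense depletion of Ca2+ in the endoplasmic reticulum and open ORAI pores in the plasma membrane. K+ channels hold the membrane potential that drives this entry, TRP channels admit mixed cations, P2X receptors open to extracellular ATP, and the endosomal CLC proteins exchange Cl- for protons. Voltage-gated Ca2+ channels are best known in excitable cells, and consist of a pore (alpha-1) subunit with beta and alpha-2-delta subunits that govern its traffic and gating.

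Levels are given as CPM, counts scaled to library size with TMM factors, and libraries are listed in the order of replicates 1, 2 and 3. Fold changes compare IRF4-deficient with WT. A gene was called where edgeR's quasi-likelihood test gave a Benjamini-Hochberg adjusted p under 0.05 over all tested genes. Library totals ran from 7421605 to 11459920 counts, and the members held 15479 to 26233 counts in each. The targeted gene Irf4 stood at 90.8, 65.3 and 83.95 CPM in IRF4-deficient and 292, 296 and 345 CPM in WT libraries, so each library matched its label. Among cDC2 markers all 14 had rows, summing to 22081 to 23941 CPM when IRF4-deficient and to 23503 to 26121 CPM in WT. Cd74 alone made up 11561 to 12951 and 13008 to 14986 CPM of these sums. Called higher were 2 (Itgax and Itgam) and lower 7 (Zbtb46, Flt3, Cd4, Cd209a, H2-Ab1, Cd74 and Kmo). Their log2 fold changes ran from -2.08 (Cd4) to 1.60 (Itgam). Markers of 2 other myeloid cells were higher in the IRF4-deficient libraries. The 12 red pulp macrophage markers, none of them at 0, summed to 1697, 2436 and 3169 CPM against 1170, 1370 and 1030 CPM in WT, with 7 called higher. The 11 monocyte markers summed to 2209 to 2871 CPM against 850 to 1225 CPM, with 5 of 9 tested called higher, while Ly6c1, Ly6c2 and F13a1 stayed under 4 CPM in every library. Of the 9 cDC1 markers 5 were called higher (Xcr1, Clec9a, Cadm1, Irf8 and Tlr3) and 2 lower (Batf3 and Wdfy4). Their sum was 1026 to 1194 CPM against 1750 to 1887 CPM in WT, of which Wdfy4 made up 699.9 to 777.0 and 1506 to 1646 CPM. T cell markers summed to 148.8 to 183.7 CPM against 117.0 to 141.2 CPM in WT, with 1 of 8 tested, Tcf7, called higher. Tcf7 made up 106.4 to 141.5 CPM of these sums in IRF4-deficient and 71.1 to 101.5 CPM in WT libraries. B cell, plasmacytoid dendritic cell and erythroid sums overlapped between the groups, and neutrophil, NK cell and platelet sums were at most 12.2 CPM. The part of these markers in the results was not tested. In bulk RNA, more cells of a type and more RNA per cell cannot be told apart.

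Channel genes went both ways in the IRF4-deficient cells, and voltage-gated Ca2+ channel subunits were among those that changed in each direction. Of the 84 members 59 passed the low-count filter, 11 were called higher and 12 lower, and 36 were not called. The called share was 39.0% of tested members, beside 20.4% over all 11934 tested genes (9.87% higher and 10.5% lower). The median log2 fold change was -0.16 over the tested members and 0.003 over all tested genes, and the median size without sign was 0.51 and 0.26. Among the 38 members with a mean of at least 5 CPM, 17 were called (44.7%), against 22.1% of all genes at that level. At least 2-fold changes were called in 7 members upward and 8 downward, and 7.38% of all tested genes were called with such a change. The groups did not overlap in 29 of the 59 tested members, beside 35.6% of all tested genes, and in 22 of the 23 called ones. Kcna2 was the called member whose groups overlapped. Without WT replicate 3 the number called lower was 7.

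**Figure D1:**
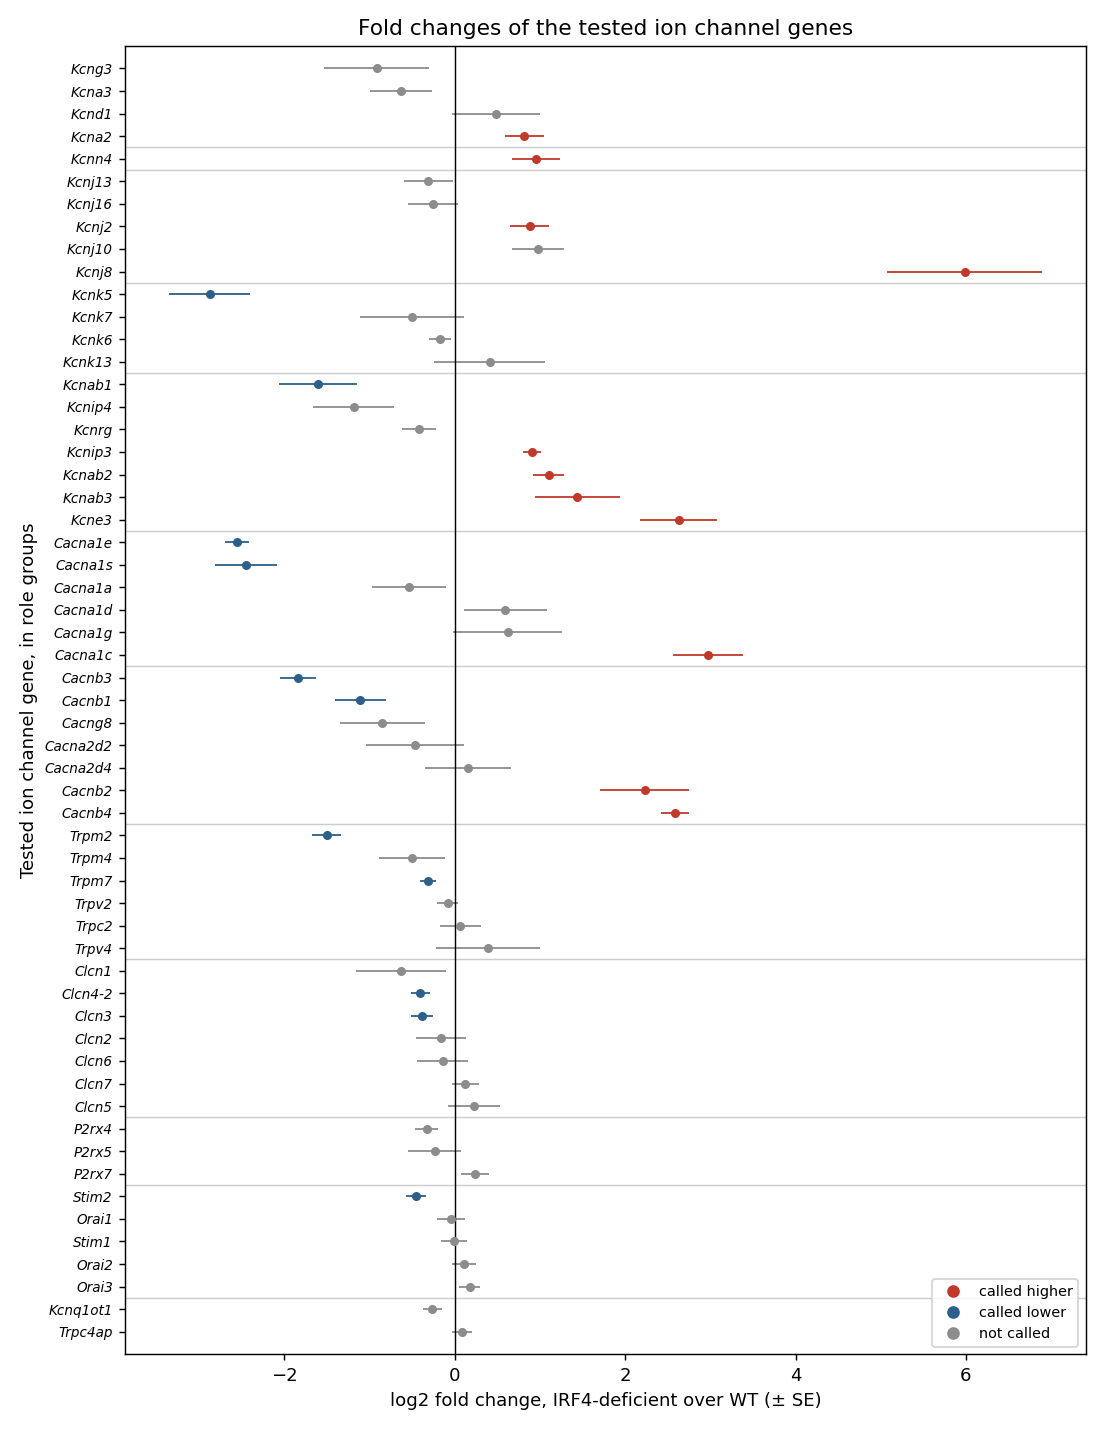
Log2 fold change of IRF4-deficient over WT with its SE (horizontal axis) for 57 of the 59 tested ion channel genes, in role groups from voltage-gated K+ pores (top) to the 2 rows that are no channel subunit (bottom). Red points were called higher, blue lower and grey not called. Cacna1c, Cacnb4 and Cacnb2 lie to the right of Cacna1e, Cacna1s and Cacnb3, and the Orai genes lie near 0.

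Of 15 voltage-gated Ca2+ channel members 13 were tested, 3 rose and 4 fell (53.8% called, beside 20.4% of all tested genes). Among the pore subunits Cacna1e, which encodes the R-type channel, fell, as did Cacna1s, the skeletal muscle L-type pore, while Cacna1c, the L-type pore of heart and smooth muscle, rose. Cacna1e (chromosome 1, 154390731 to 154884501, GRCm38) stood at 18.6, 22.1 and 15.9 CPM in IRF4-deficient and 102.1, 107.5 and 122.7 CPM in WT libraries. Every IRF4-deficient library lay far below every WT library. The log2 fold change was -2.55 (SE 0.14, edgeR adjusted p = 3.05e-10), a 5.87-fold lower level. Cacna1s had 2.02, 2.97 and 1.45 CPM against 7.61, 15.2 and 12.2 CPM (log2 fold change -2.45, SE 0.37, edgeR adjusted p = 6.12e-05). The groups were well apart, although WT libraries themselves differed. Cacna1c (chromosome 6, 118587240 to 119196418) had 9.85, 8.90 and 14.3 CPM in IRF4-deficient and 2.07, 0.636 and 1.64 CPM in WT libraries, a 7.86-fold higher level (log2 fold change 2.98, SE 0.41, edgeR adjusted p = 2.70e-05). Its lowest IRF4-deficient library was above its highest WT library. But the WT libraries of Cacna1c alone would not have met the low-count filter, so this p-value only describes the difference. Cacna1a, Cacna1d and Cacna1g, pores of the P/Q-, L- and T-type channels, had log2 fold changes of -0.53, 0.60 and 0.62 with SE of 0.43 to 0.64 and were not called.

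Beta subunits, which bind the pore from the cytoplasm, changed in opposite directions. Cacnb4 (chromosome 2, 52428320 to 52676831) rose 5.99-fold, from 10.1, 12.3 and 13.1 CPM (WT) to 68.7, 60.3 and 84.2 CPM in IRF4-deficient libraries (log2 fold change 2.58, SE 0.17, edgeR adjusted p = 2.01e-09). Cacnb3 (chromosome 15, 98630840 to 98644529) fell 3.57-fold, from 104.8, 172.7 and 152.2 CPM to 50.2, 30.4 and 39.3 CPM (log2 fold change -1.84, SE 0.21, edgeR adjusted p = 0.000117). Neither gene's groups came near to overlapping. Cacnb2 was low but rose, from 0.968, 0.455 and 1.78 CPM to 5.89, 3.71 and 4.90 CPM (log2 fold change 2.23, SE 0.53, edgeR adjusted p = 0.00458). The WT libraries of Cacnb2 alone would not have met the low-count filter, so this p-value only describes the difference. Cacnb1 fell from 8.99, 10.7 and 12.02 CPM to 3.59, 5.19 and 6.01 CPM (log2 fold change -1.11, SE 0.30, edgeR adjusted p = 0.0113). Its call was lost without IRF4-deficient replicate 1 (adjusted p = 0.0516 in edgeR) and without WT replicate 3 (0.0566). All 4 beta genes were thus called, 2 in each direction, with that limit for Cacnb2. The alpha-2-delta genes Cacna2d2 and Cacna2d4 and the gamma-type Cacng8 were at 1.47 to 3.65 CPM in either group and were not called. Exons of Cacnb4 overlap those of A430018G15Rik on the other strand in GENCODE M21, and A430018G15Rik has no row in the table.

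To compare subunits with each other, levels were divided by the length of each gene's merged annotated exons, as CPM per kb. On that scale Cacnb3 was 90.3 ± 1.45% of the summed beta subunit level in WT and 51.2 ± 6.33% in IRF4-deficient libraries (SD, n = 3 each). The share of Cacnb4 was 3.41 ± 0.462% and 41.2 ± 4.79%. Together the 4 beta genes summed to 39.5 ± 9.08 CPM per kb in WT and 19.4 ± 3.15 in IRF4-deficient libraries, so the rise of Cacnb4 went with a lower sum. Among pore subunits the share of Cacna1e was 62.6 ± 6.89% in WT and 29.8 ± 2.54% in IRF4-deficient libraries, and that of Cacna1c 1.02 ± 0.633% and 21.1 ± 6.92%. The 8 pore genes summed to 7.06 ± 0.997 and 2.50 ± 0.251 CPM per kb. These shares restate the changes above within each library and were not tested.

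**Figure D2:**
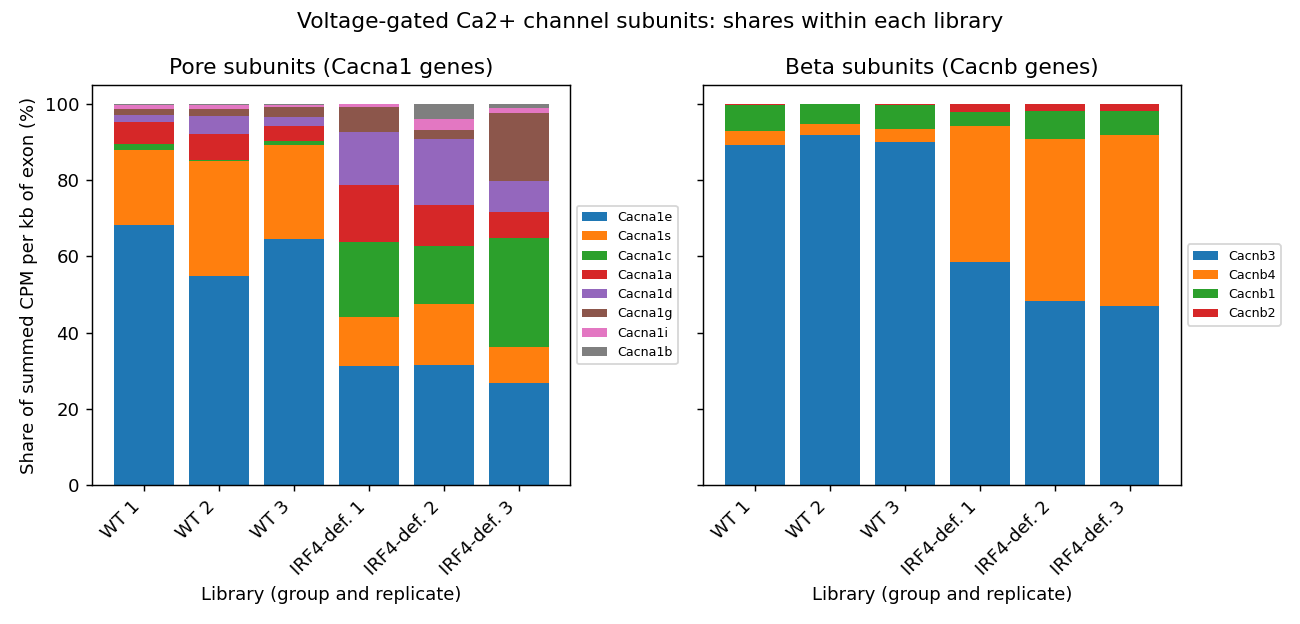
Share of each gene in the summed CPM per kb of exon (vertical axis, %) of Ca2+ channel pore genes (left) and beta genes (right) in each library (horizontal axis, 3 WT and then 3 IRF4-deficient). Cacnb3 fills 89.1 to 91.9% of the beta bars in WT and 46.9 to 58.5% in IRF4-deficient libraries, and Cacna1c is a visible part of the pore bars in the IRF4-deficient ones.

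Promoter sequences were inspected because beta subunit genes moved in opposite directions and IRF4 binds DNA through known motifs. RefSeq promoters (GRCm38.p6, 250 bases before to 50 after a start) were found for 69 of the 84 members and for 21 of the 23 called ones. Shown are 1 annotated start each of Cacnb3, the beta gene that fell most, and of Cacnb4, the beta gene that rose most. With them stands a start of Kcnab1, a K+ channel beta subunit gene described further on, as the called member in whose promoters the interferon-stimulated response element was found. Sequences run 5′ to 3′ on the gene's strand, and capitals mark matches to the motifs listed after them, except AP-1 itself. The Cacnb3 and Cacnb4 windows shown hold no match.
Cacnb3, chr15:98632078-98632377, plus strand: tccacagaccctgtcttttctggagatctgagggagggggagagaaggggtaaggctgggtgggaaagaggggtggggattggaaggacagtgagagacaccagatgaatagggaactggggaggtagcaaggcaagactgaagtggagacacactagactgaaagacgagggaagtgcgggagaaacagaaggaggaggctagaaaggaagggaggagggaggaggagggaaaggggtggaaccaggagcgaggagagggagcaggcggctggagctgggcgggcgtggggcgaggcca
Cacnb4, chr2:52676094-52676393, minus strand: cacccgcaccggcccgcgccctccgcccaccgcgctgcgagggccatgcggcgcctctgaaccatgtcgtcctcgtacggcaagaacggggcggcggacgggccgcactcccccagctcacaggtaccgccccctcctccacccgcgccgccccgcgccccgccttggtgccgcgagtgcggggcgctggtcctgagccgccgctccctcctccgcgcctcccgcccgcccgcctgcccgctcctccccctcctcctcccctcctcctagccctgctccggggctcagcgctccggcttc
Kcnab1, chr3:65187853-65188152, plus strand: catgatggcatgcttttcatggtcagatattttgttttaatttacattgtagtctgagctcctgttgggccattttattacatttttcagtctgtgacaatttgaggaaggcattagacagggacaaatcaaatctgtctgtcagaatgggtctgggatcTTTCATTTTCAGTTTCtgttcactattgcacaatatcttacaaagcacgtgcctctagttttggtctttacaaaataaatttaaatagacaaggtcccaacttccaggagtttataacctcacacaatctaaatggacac
The motifs searched, on both strands, were the interferon-stimulated response element (GAAA, any 2 bases, GAAA), the Ets-IRF composite element (GGAA, any 2 bases, GAAA), 2 AP-1-IRF composite elements (TTTC, any 4 bases, TGANTCA; and GAAA followed directly by TGANTCA) and AP-1 itself (TGANTCA), whose letters lie within both AP-1-IRF composites. The capitals in Kcnab1 are 2 overlapping matches to the response element on the minus strand. That element was in 2 of 37 promoters of called members (5.41%), both of Kcnab1, and in 3.44% of all 32851 promoters of the same length. The Ets-IRF composite was in 0 of the 37 and in 2.72% of all promoters, the AP-1-IRF composites in 0 of the 37 and in 0.119% and 0.125%, and AP-1 in 5.41% and 7.81%. A match is a run of letters and no evidence of binding, and a missing match says nothing of sites outside these windows.

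K+ channel genes made up 40 of the members. Of these 23 were tested, 8 rose and 3 fell (47.8% called, beside 20.4% of all tested genes). Among voltage-gated pores Kcna2, a delayed rectifier, had the highest CPM. It stood at 47.3, 78.6 and 84.1 CPM in IRF4-deficient and 31.7, 50.4 and 36.1 CPM in WT libraries, so the groups overlapped. The log2 fold change was 0.82 (SE 0.23, edgeR adjusted p = 0.026). That call was lost without IRF4-deficient replicates 2 or 3 or WT replicates 1 or 3 (adjusted p = 0.0903, 0.0849, 0.0773 and 0.0807 in edgeR) and with limma-voom (0.0671). Kcna3, the voltage-gated channel known from T cells, had a mean of 4.31 CPM against 6.77 CPM in WT and was not called (log2 fold change -0.63, SE 0.36). Kcng3 and Kcnd1 were not called either. Kcnn4, the Ca2+-activated channel that sustains Ca2+ entry in lymphocytes and macrophages, rose 1.94-fold. It had 10.8, 12.1 and 10.02 CPM in IRF4-deficient and 7.33, 5.18 and 4.51 CPM in WT libraries (log2 fold change 0.95, SE 0.28, edgeR adjusted p = 0.0209). Without IRF4-deficient replicate 2 or WT replicates 2 or 3 the adjusted p was 0.0694, 0.0873 and 0.0897.

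Inward rectifiers, which pass K+ inward more easily than outward and set the resting potential, include the called member with the lowest level in WT. Kcnj8, the pore of an ATP-sensitive K+ channel known from pericytes and vascular smooth muscle, had 29, 22 and 41 counts in IRF4-deficient libraries and 0, 1 and 0 counts in WT. The depth-scaled ratio of group totals was 84.1 with a 95% counting interval of 14.7 to 3359 (exact binomial, counting error only). edgeR's adjusted p was 7.38e-05, and the levels were 2.67, 2.72 and 4.57 CPM in the IRF4-deficient libraries. Kcnj8 met the minimum of 10 counts and the low-count filter through its IRF4-deficient libraries alone. A gene as low in both groups would not have been tested, so this p-value and ratio only describe the difference. Abcc9, the gene of a regulatory subunit of that channel, averaged 0.712 CPM against 0.212 CPM in WT and was not tested (it was looked up after the value of Kcnj8 was seen). Kcnj2, the classical strong inward rectifier, rose 1.84-fold. It had 17.1, 17.1 and 26.6 CPM against 11.1, 9.64 and 12.4 CPM (log2 fold change 0.88, SE 0.23, edgeR adjusted p = 0.00949), and an adjusted p of 0.0615 without IRF4-deficient replicate 3 and 0.0559 without WT replicate 2.

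Kcnj10, known for K+ buffering in glia, was higher in every IRF4-deficient library but did not pass the test. Its levels were 61.2, 96.9 and 142.9 CPM in IRF4-deficient and 44.3, 58.3 and 49.7 CPM in WT libraries (log2 fold change 0.98, SE 0.30, edgeR adjusted p = 0.0672). It was called by DESeq2 (adjusted p = 0.0313), without robust shrinkage (0.00361), and without IRF4-deficient replicate 1 (2.61e-05) or 3 (0.0203). A block for replicate number in edgeR also gave the call. The summed red pulp macrophage markers were likewise lowest in IRF4-deficient replicate 1 and highest in replicate 3 of that group, at 1697 and 3169 CPM. So were the summed monocyte markers, at 2209 and 2871 CPM. Among members Kcna2, Kcnj16 and P2rx7 shared this order, and others, such as Kcnip3, did not. The part of the markers in the result was not tested. Kcnj16, whose product pairs with that of Kcnj10, was at 47.3, 61.2 and 93.2 CPM against 70.9, 63.7 and 106.8 CPM and was not called (log2 fold change -0.26, SE 0.29). Kcnj13 was not called.

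The 2-pore-domain channels carry background K+ current. Kcnk6 was their most abundant member by level per length, at 87.9, 80.3 and 95.0 CPM in IRF4-deficient and 87.5, 89.5 and 119.9 CPM in WT libraries. It was not called (log2 fold change -0.17, SE 0.13). Kcnk5, an alkaline-activated channel, fell 7.35-fold, from 5.53, 9.18 and 6.42 CPM in WT to 1.38, 0.989 and 0.445 CPM in IRF4-deficient libraries (log2 fold change -2.88, SE 0.47, edgeR adjusted p = 0.000178). Its 2 groups were widely separated, but its IRF4-deficient libraries alone would not have met the low-count filter. Kcnk5 was tested through its WT libraries, so this p-value only describes the difference. Kcnk3 had 23 counts in the IRF4-deficient libraries and 0 in WT, a ratio of 7.01 when WT is set at 3 counts over the group. With the observed 0 counts in WT, the lower 95% counting limit of the ratio (exact binomial) was 5.26. Kcnk3 did not pass the filter, and was called when no filter was used (edgeR adjusted p = 0.0247). Kcnk12 had 45 and 5 counts, a ratio of 8.23 (95% counting interval 3.28 to 26.6).

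Of 7 tested auxiliary K+ channel genes 4 rose and 1 fell (71.4% called, beside 20.4% of all tested genes), and the call of 1 that rose, Kcnab3, was not stable. Kcnip3 encodes a Ca2+-binding protein that modulates voltage-gated K+ channels and also acts as the transcriptional repressor DREAM. It was the member with the highest level per length, at 110.3 CPM per kb when IRF4-deficient and 59.0 CPM per kb in WT. Its levels were 377.1, 354.7 and 441.1 CPM against 183.9, 202.4 and 240.8 CPM, a 1.87-fold rise with no overlap of the groups (log2 fold change 0.90, SE 0.11, edgeR adjusted p = 5.66e-06). Kcne3, a small subunit that alters voltage gating of its partner, rose 6.18-fold, from 0.830, 1.45 and 1.23 CPM in WT to 4.79, 10.5 and 7.13 CPM (log2 fold change 2.63, SE 0.45, edgeR adjusted p = 0.000257). With its WT libraries alone Kcne3 would not have met the low-count filter, so this p-value only describes the difference. Kcnab2, a cytoplasmic beta subunit, rose 2.14-fold, from 11.6, 14.1 and 17.3 CPM to 29.6, 32.1 and 30.6 CPM (log2 fold change 1.10, SE 0.19, edgeR adjusted p = 0.000241). In both genes every IRF4-deficient library was above every WT one. The other beta subunit genes were low. Kcnab1 fell from 3.73, 4.18 and 4.64 CPM to 1.29, 1.36 and 1.45 CPM (log2 fold change -1.61, SE 0.46, edgeR adjusted p = 0.0164), and lost its call without WT replicates 2 or 3 (adjusted p = 0.0686 and 0.0738). Kcnab3 rose from 0.830, 1.45 and 1.37 CPM to 3.96, 2.84 and 3.23 CPM (log2 fold change 1.44, SE 0.50) with an edgeR adjusted p of 0.0484, just inside the threshold. Like Kcne3, it met the low-count filter through its IRF4-deficient libraries. Leaving out any 1 of the 6 libraries ended the call (adjusted p = 0.148, 0.0694 and 0.0711 without IRF4-deficient replicates 1, 2 and 3, and 0.165, 0.108 and 0.112 without WT replicates 1, 2 and 3), and it was 0.0574 with limma-voom and 0.0597 with no filter. Kcnip4 and Kcnrg had log2 fold changes of -1.19 (SE 0.48) and -0.42 (SE 0.20), with no overlap of the groups, and were not called (edgeR adjusted p = 0.088 and 0.154).

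**Figure D3:**
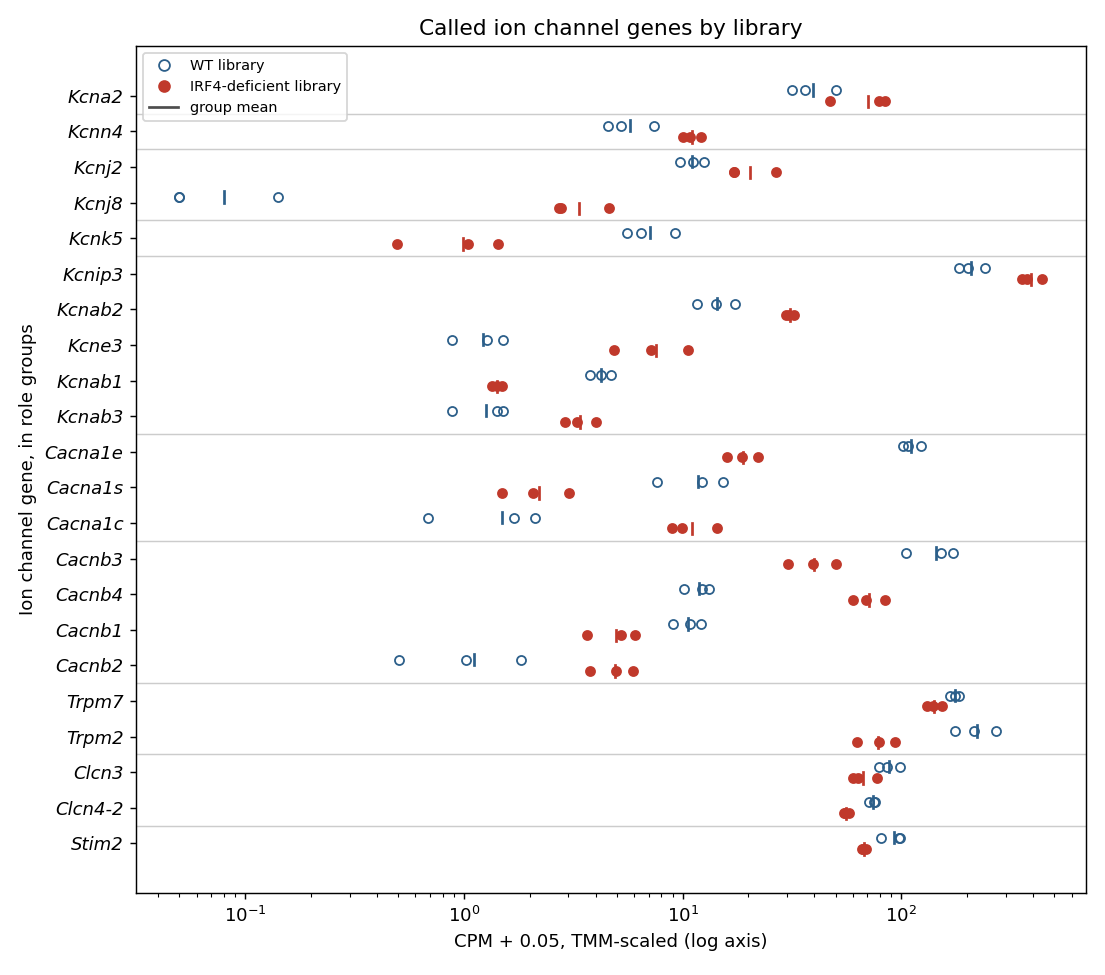
TMM-scaled CPM plus 0.05 (horizontal log axis) of 22 of the 23 called ion channel genes in each WT library (open blue circles, upper of each pair) and each IRF4-deficient library (filled red circles, lower of each pair), with group means as vertical lines (n = 3 each). Kcna2 is the gene in which the circles of the groups overlap, and Kcnj8 has 2 WT libraries at 0.

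Of 6 tested TRP channel genes 2 were called lower and 0 higher by edgeR (33.3% called, beside 20.4% of all tested genes). The 4 others had no adjusted p under 0.413, and the number with an unadjusted p under 0.05 was also 2. Trpm2, a Ca2+-permeable channel opened by ADP-ribose and oxidative stress, fell 2.84-fold. It had 62.7, 93.1 and 78.8 CPM in IRF4-deficient and 215.9, 270.9 and 175.9 CPM in WT libraries (log2 fold change -1.504, SE 0.17, edgeR adjusted p = 6.92e-05). The lowest WT library lay well above the highest IRF4-deficient one. Trpm7, a channel fused to a kinase and linked to Mg2+ uptake, fell 1.24-fold from 176.2, 167.2 and 182.6 CPM to 130.3, 139.2 and 153.0 CPM (log2 fold change -0.32, SE 0.10, edgeR adjusted p = 0.0238). Its call was lost without IRF4-deficient replicates 1 or 2 or WT replicates 1 or 3 (adjusted p = 0.115, 0.0764, 0.0593 and 0.0929). Trpv2, the TRPV channel of macrophages, was at 69.9, 68.1 and 58.2 CPM against 69.0, 72.3 and 66.7 CPM, and was not called (log2 fold change -0.08, SE 0.12). Trpc2, Trpm4 and Trpv4 were not called. Reads of Trpc2 cannot be told from those of the overlapping gene Xntrpc.

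Of 7 chloride channel and exchanger genes, all tested, 2 were called lower and 0 higher by edgeR (28.6% called, beside 20.4% of all tested genes), and 2 had an unadjusted p under 0.05. Clcn4-2 (Clcn4 in GENCODE M21), an endosomal exchanger gene, fell 1.32-fold from 71.4, 75.6 and 74.7 CPM to 57.8, 55.4 and 54.4 CPM (log2 fold change -0.40, SE 0.12, edgeR adjusted p = 0.0168), with adjusted p of 0.0763 and 0.0553 without WT replicates 2 and 3. Clcn3, its close relative in endosomes, fell 1.31-fold from 85.7, 78.7 and 98.3 CPM to 77.1, 63.2 and 60.3 CPM (log2 fold change -0.39, SE 0.13, edgeR adjusted p = 0.0386). The highest IRF4-deficient and the lowest WT library were close to each other. Its call was lost without IRF4-deficient replicates 2 or 3 or WT replicates 1 or 3 (adjusted p = 0.121, 0.0995, 0.0731 and 0.190). Clcn7, the lysosomal exchanger gene, was at 43.8, 33.9 and 34.1 CPM against 31.0, 38.7 and 32.6 CPM, and was not called (log2 fold change 0.13, SE 0.16). Clcn1, Clcn2, Clcn5 and Clcn6 were not called.

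The core of store-operated Ca2+ entry showed small differences. Stim2, the sensor that responds to slight store depletion, fell 1.37-fold, from 80.6, 97.1 and 98.3 CPM in WT to 68.6, 66.2 and 66.6 CPM in IRF4-deficient libraries (log2 fold change -0.46, SE 0.12, edgeR adjusted p = 0.00789). The groups did not overlap, and the adjusted p was 0.0528 without WT replicate 2. Stim1, the main sensor, had 27.8, 31.5 and 28.6 CPM against 27.7, 29.5 and 31.1 CPM (log2 fold change -0.01, SE 0.15). The pore genes Orai1, Orai2 and Orai3 changed by -0.04, 0.11 and 0.17 on the log2 scale, with SE of 0.16, 0.14 and 0.12. None of these 4 genes was called by edgeR, DESeq2 or limma-voom, and none of the 4 had an unadjusted p under 0.05. Per length Orai3 stood highest of the 5 genes, at 28.1 CPM per kb when IRF4-deficient and 24.9 CPM per kb in WT, and Stim1 lowest, at 2.83 and 2.84 CPM per kb.

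Around this core, 42 genes of Ca2+ release, Ca2+ pumps, mitochondrial uptake and calcineurin-NFAT signalling were listed, of which 39 were tested, 6 rose and 3 fell (23.1%, beside 20.4% of all tested genes). Their median log2 fold change was 0.04. Plcg1, a phospholipase C that produces the messenger for store release, fell 2.90-fold to 12.1 ± 2.99 CPM, while the haematopoietic isoform Plcg2 rose 1.39-fold to 302.3 ± 2.22 CPM (SD, n = 3). Itpr1, an inositol trisphosphate receptor of the store, fell from 449.2 ± 31.9 to 300.2 ± 49.0 CPM. Ppp3r1, the regulatory subunit of calcineurin, fell 1.37-fold.

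No P2X receptor gene was called by edgeR, DESeq2 or limma-voom among the 3 tested, and 1 of them had an unadjusted p under 0.05. P2rx7, the ATP receptor that triggers inflammasome activation, was at 33.6, 36.7 and 48.8 CPM in IRF4-deficient and 31.9, 38.8 and 29.9 CPM in WT libraries (log2 fold change 0.24, SE 0.17). P2rx4 was at 39.8, 45.1 and 49.4 CPM against 60.9, 51.5 and 56.7 CPM (log2 fold change -0.33, SE 0.13, edgeR adjusted p = 0.0909). Its groups did not overlap, and it was called lower without IRF4-deficient replicate 3 (adjusted p = 0.044). P2rx5 was not called (log2 fold change -0.23, SE 0.31), and P2rx3 and P2rx6 were not tested. Of 24 tested genes of the P2X7 and NLRP3 inflammasome pathway and its purinergic relatives, 7 rose and 7 fell. The called share was 58.3%, beside 20.4% of all tested genes, and the median log2 fold change was -0.02. Like the other gene lists here, this list was chosen with earlier results of these data known, so its share is descriptive. P2ry12 and P2ry13, which encode ADP receptors, rose 4.10-fold and 2.96-fold. Mefv, the pyrin gene, fell 3.03-fold, and Il1b 1.66-fold from 173.8 ± 1.20 to 104.5 ± 8.40 CPM.

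**Figure D4:**
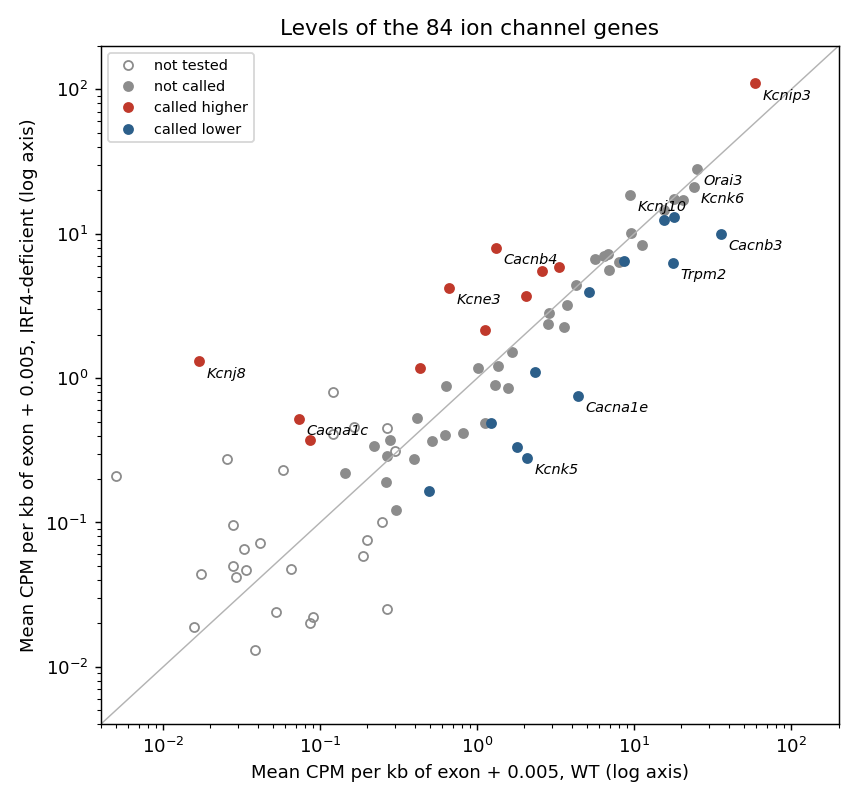
Mean CPM per kb of exon plus 0.005 in WT (horizontal log axis) against IRF4-deficient libraries (vertical log axis) for the 84 ion channel genes, with the line of equal levels. Red points were called higher and blue lower, grey points were not called, and open points were not tested. Kcnip3 is at the top right, at 59.0 and 110.3 CPM per kb, and Cacna1e lies far below the line, at 4.39 and 0.748.

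Other channel and pump genes that the name rule leaves out were listed for comparison. Of 42 tested, 8 rose and 8 fell (38.1%, beside 20.4% of all tested genes), with a median log2 fold change of 0.13. Atp1b1, a beta subunit of the Na+/K+ pump, rose 12.1-fold, with 40.4 ± 6.06 CPM against 3.41 ± 1.27 CPM in WT (log2 fold change 3.60, SE 0.25), and Atp1b3, another beta subunit, rose 1.56-fold. Ano6, a lipid scramblase and ion channel gene, rose 1.56-fold. Slc12a2, the Na+-K+-Cl- cotransporter gene, fell 1.51-fold.

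Within 100 kb of each other in the genome lay 5 pairs of members. Kcnj16 and Kcnj2 are 38195 bases apart on chromosome 11, with log2 fold changes of -0.26 and 0.88. Kcna3 and Kcna2 are 63075 bases apart on chromosome 3, with -0.63 and 0.82. P2rx7 and P2rx4 are 16111 bases apart on chromosome 5, with 0.24 and -0.33. The difference within each pair was not tested. Cacna1c, called higher, has as its neighbour Cacna2d4, which was not called, and Kcnj9 beside Kcnj10 was not tested.

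The 25 members that did not pass the filter had 10 to 79 counts over the 6 libraries, and with no filter 1 of them, Kcnk3, was called by edgeR while 4 had an unadjusted p under 0.05. In Kcnn1, a small-conductance Ca2+-activated channel gene, 3, 0 and 0 counts in IRF4-deficient libraries stood against 3, 11 and 16 in WT. P2rx3 had 30 of its 34 IRF4-deficient counts in replicate 3, and Kcnip2 19 of 21. Of the rows caught by name alone, Kcnq1ot1 is an imprinted noncoding RNA antisense to Kcnq1 and Trpc4ap encodes a protein that binds TRP channels. Kcnq1ot1, at 188.7, 250.3 and 218.8 CPM in IRF4-deficient and 228.9, 285.9 and 272.9 CPM in WT libraries, was not called (log2 fold change -0.26, SE 0.11), but was without IRF4-deficient replicate 2 (edgeR adjusted p = 0.0385) or WT replicate 1 (0.0369). Trpc4ap was not called (log2 fold change 0.08, SE 0.12).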

How the data were processed

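The values the authors deposited are raw gene counts, whole numbers with unequal totals, in 1 table with 6 columns. STAR, HTSeq and DESeq2 and the build mm10 are named in the submitters' processing notes. For tool versions, annotation, strand setting and row filter nothing is given in the sources used here, so reads of overlapping genes cannot be told apart. Exons of 38 members, 11 of them called, overlap another gene in GENCODE M21 (GRCm38), which matched 83 members by symbol and 1 by an older symbol. WT columns were matched to titles through source names. Replicates differed beyond counting noise (chi-square per degree of freedom 7.66 to 15.9 within groups).

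The table was filtered with filterByExpr, scaled with TMM and fitted whole with edgeR 4.0.16 (robust glmQLFit, glmQLFTest, prior count 0.125, R 4.3.3). The SE is derived from the F statistic. Steps were tested on simulated data. Members, lists and tests were chosen with earlier results of these data known. Named are called members, those with a mean of at least 20 CPM, the most abundant per role, tested Orai, Stim and P2rx genes, and 4 genes with the smallest p per list. Other names stand in counts, some of them with values (such as Cacna1a, Cacna1d, Cacna1g, Kcnip4 and Kcnrg), or were chosen after their values were seen. Chosen in that way were Kcna3, Kcnk3, Kcnk12, Kcnn1, Kcnip2, P2rx3 and Abcc9. Alternatives were DESeq2 1.42.0, DESeq2 size factors, upper-quartile factors, no filter, 5 CPM in 3 libraries, limma-voom (limma 3.58.1), a block for replicate number, no robust shrinkage, removal of Rn45s and Malat1, and leaving out each library. The table has no column that was not used. Results of 2 member genes are not reported here, and counts over all members include them.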

Additional observations from a re-analysis of the deposited data

How the results depend on the processing

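Of the 23 called members, 12 were called in every alternative that gave a value for them (15, or 14 for Cacnb2, Kcne3 and Kcnj8, which the filter of 5 CPM leaves out): Cacna1c, Cacna1e, Cacna1s, Cacnb2, Cacnb3, Cacnb4, Kcnab2, Kcne3, Kcnip3, Kcnj8, Kcnk5 and Trpm2. Of these, Cacna1c, Cacnb2, Kcne3 and Kcnj8 met the low-count filter through their IRF4-deficient libraries and Kcnk5 through its WT libraries. For those genes the repeated calls only describe the difference. With a filter of 5 CPM in 3 libraries 39 members were tested, and 7 were called higher and 11 lower. Leaving out each library gave 8 to 11 members called higher and 7 to 13 lower, the 7 without WT replicate 3. Over all genes these fits called 1779 to 2431. Signs changed among uncalled genes near 0. The log2 fold change of Stim1 was 0.0048 with Rn45s and Malat1 removed. Leaving out 1 library moved it from -0.0563 to 0.0334 for Stim1, from -0.2337 to 0.0778 for Orai1 and from -0.0056 (IRF4-deficient replicate 1 left out) to 0.2279 for Clcn7. The replicate numbers follow the titles and are not said to pair libraries, and deviations of same-numbered libraries correlated at -0.01, 0.05 and -0.01. The deposited columns of WT replicates 1, 2 and 3 bear the numbers 2, 3 and 4. By column number, IRF4-deficient replicate 2 and WT replicate 1 correlated at -0.017. IRF4-deficient replicate 3 and WT replicate 2 correlated at -0.01. The replicate block used the title numbers. With the replicate block 11 members were called higher and 11 lower (2267 genes in all). It ended the calls of Clcn3 (adjusted p = 0.0509) and Kcnab3 (0.0744) and added one of Kcnj10 (0.00259). The 25 members under the filter had at most 79 counts each, so their ratios carry wide counting intervals.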
